A study of Mus musculus with 3 samples.

Results

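The gp130 cytokine pathway and the acute-phase products downstream of it were followed here through 10 genes in NIH3T3, a mouse fibroblast line that grows without limit in culture. The genes are the ligands Il6 and Lif, the receptor subunits Osmr and Il6st, the signal carrier Stat3, its inhibitor Socs3, the transcription factor Cebpd, and the acute-phase products Hp, Saa3 and Lcn2. They belong to this pathway and were partly chosen by measured values, since Hp, Socs3 and Saa3 had been seen to read highest on the RetSat shRNA array. Every probe set annotated with exactly 1 gene symbol, that of a member, was taken, which gave 22 of the 45101 probe sets on the arrays and all 10 genes, of 18193 genes with such a probe set. Because values on the RetSat shRNA array chose members, the differences of that array from the controls are given for them as a description, with no test.

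The series compared NIH3T3 cells with a short hairpin RNA (shRNA) to cells with the vector alone, as part of a screen for oxidative stress resistance. Total RNA was hybridised to 3 single-colour oligonucleotide arrays. 2 arrays held empty-vector cells, labelled as untreated, as showing basal expression and as grown in DMEM with calf serum (EV1 and EV2). The third held cells with an shRNA against retinol saturase (RetSat shRNA), labelled as highly resistant to t-BHP, tert-butyl hydroperoxide, an organic peroxide. No treatment or medium is stated for that array, and the labels do not say whether its cells were 1 clone or a pool. The shared background of all 3 arrays is the NIH3T3 line.

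Cytokines of the interleukin-6 family bind a receptor subunit of their own and then share gp130, the product of Il6st. The receptor-bound JAK kinases phosphorylate STAT3, which moves to the nucleus and switches on Socs3, Cebpd and, together with C/EBP and NF-kB factors, acute-phase genes. SOCS3 protein binds gp130 and the JAKs and shuts the signal off. Most acute-phase proteins are made by the liver, while Saa3 and Lcn2 are also made by fibroblasts and other cells outside it. The arrays measured mRNA, so neither phosphorylated STAT3 nor secreted protein was observed.

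Upstream sequences are shown for 4 members, because these genes differ in how they read across the arrays: Socs3 and Saa3 read lowest on EV1 and highest on RetSat shRNA, and Il6 and Lcn2 read highest on EV1. Each run is the 250 bases before the transcription start of the RefSeq promoter table (GRCm38.p6), 5′ to 3′ on the gene's strand, with motif matches in capitals. The windows are chr11:117969367-117969616 on the minus strand for Socs3, chr7:46715677-46715926 on the minus strand for Saa3, chr5:30012864-30013113 on the plus strand for Il6 and chr2:32387740-32387989 on the minus strand for Lcn2. The annotated gene spans reach further out for Socs3 (chr11:117966079-117970336) and Saa3 (chr7:46711998-46719615), so both windows lie inside the span of a longer transcript.
Socs3: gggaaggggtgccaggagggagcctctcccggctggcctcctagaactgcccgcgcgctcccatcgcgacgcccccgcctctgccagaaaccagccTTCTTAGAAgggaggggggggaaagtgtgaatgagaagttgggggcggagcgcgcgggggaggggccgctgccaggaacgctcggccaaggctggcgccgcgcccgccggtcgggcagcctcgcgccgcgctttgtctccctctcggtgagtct
Saa3: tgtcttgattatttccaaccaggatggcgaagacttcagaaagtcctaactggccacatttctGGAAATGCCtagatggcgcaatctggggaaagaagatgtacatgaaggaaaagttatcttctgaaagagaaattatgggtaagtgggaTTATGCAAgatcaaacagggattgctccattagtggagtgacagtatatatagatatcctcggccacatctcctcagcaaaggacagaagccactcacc
Il6: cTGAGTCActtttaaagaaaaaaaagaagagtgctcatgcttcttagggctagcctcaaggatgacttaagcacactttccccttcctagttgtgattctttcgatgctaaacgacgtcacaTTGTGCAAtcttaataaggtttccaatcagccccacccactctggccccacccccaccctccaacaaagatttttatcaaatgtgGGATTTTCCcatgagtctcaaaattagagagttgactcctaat
Lcn2: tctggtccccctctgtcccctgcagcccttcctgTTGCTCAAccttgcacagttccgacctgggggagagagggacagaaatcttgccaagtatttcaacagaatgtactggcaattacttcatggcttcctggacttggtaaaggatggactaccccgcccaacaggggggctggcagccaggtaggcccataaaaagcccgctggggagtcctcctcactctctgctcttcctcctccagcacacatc

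Both strands were searched for a STAT motif (TTCNNNGAA), a C/EBP motif (TTNNGCAA), an NF-kB motif (GGNNTTTCC), an AP-1 motif (TGANTCA) and a TATA box (TATAAA), chosen with these sequences in view. The table held 8 of the 10 members (not Hp or Cebpd). The STAT letters were found in 1 of the 8 windows, that of Socs3, where the match TTCTTAGAA began 154 bases before the start, and in 7.02% of all 32851 promoters of the same length. The C/EBP letters were found 99 bases before the start of Saa3, 128 before that of Il6 and 216 before that of Lcn2, and in 9.56% of all promoters. The NF-kB letters were found 43 bases before the start of Il6 and 187 before that of Saa3, and in 4.93% of all promoters. The AP-1 letters were found 249 bases before the start of Il6 and 228 before that of Lif, and in 6.75% of all promoters. No window held TATAAA (12.4% of all promoters), and no 2 of these matches overlapped. A match describes letters and not a bound site.

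The arrays were unequally alike, and that bears on every value below. Over all 10843 genes tested, the median log2 difference of RetSat shRNA was 0.14 from EV1 and 0.00 from EV2 in the deposited signals, and the SD of the log2 difference was 0.754 and 0.336, with 0.739 between the empty-vector arrays. Log2 values were taken after adding an offset of 10.2 to each signal, which understates the change of dim genes. The target, Retsat, read 415.9 on EV1, 495.9 on EV2 and 69.5 on RetSat shRNA. In limma's moderated test 0 of 10843 genes (0%) had an adjusted p of 0.05 or less, and 108 (0.996%) had an unadjusted p under 0.05. The spread in that fit comes from the 2 empty-vector arrays, and nothing in the labels says whether they were separate cultures. In bulk RNA of this kind, fewer cells expressing a gene and less RNA per cell cannot be told apart. The 3′ to 5′ signal ratio of the Actb control, a sign of RNA breakdown when high, stood at 1.53, 1.53 and 1.65 for EV1, EV2 and RetSat shRNA, and that of Gapdh at 0.841, 0.931 and 0.931.

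Markers of the labelled cell type were present. All 9 fibroblast markers passed the filter on dim genes (mean log2 signal at or above the median of all probe sets), and their summed signal was 72980.1, 71624 and 72344.9 on EV1, EV2 and RetSat shRNA. Single markers were less level. By their brightest probe sets Pdgfra read 4732.8, 2172.5 and 1886.7, and Pdgfrb read 1287, 2548 and 2455.4. Other probe sets of Pdgfra did not give 1 pattern, at 456.9, 491 and 446.8, near level, and at 1016.3, 307.3 and 247.5. Of 7 hepatocyte markers none passed, with a summed signal of 100.1, 88.4 and 79.6, and albumin (Alb) read 8.1, 5.7 and 1.9. Of 11 macrophage and neutrophil markers 4 passed, with sums of 445.6, 430.6 and 373.9. Below the filter, single markers went both ways on RetSat shRNA, such as Ptprc (4.4, 5.1 and 15.2) and Elane (30.1, 13.2 and 7.3). Itgam, an integrin of myeloid cells, read 0.9, 1.2 and 1.3, at the floor of the arrays. Epithelial markers summed to 307.6, 234.6 and 255.9, with 3 of 6 passing. Adipocyte markers summed to 775.7, 741.2 and 787.3, with 2 of 4 passing, the fatty acid binding protein Fabp4 (487.2, 333.6 and 440.4) and the lipase Lpl (281.2, 399.4 and 318.6). The adipocyte markers below the filter went opposite ways, Adipoq at 1.7, 3.8 and 24.8 and Pparg at 5.6, 4.4 and 3.5. The part of these cell types in the results was not tested.

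All 10 members passed the filter on dim genes, and 20 of their 22 probe sets did. A gene is represented below by its probe set of highest mean log2 signal. By that measure 4 of the 10 members (Hp, Socs3, Saa3 and Cebpd) had their top signal on RetSat shRNA, above both controls, compared with 34.4% of all genes tested, and 1 (Il6) read lower than both, compared with 25.4%. The choice of members used this contrast, so nothing is read from these counts. None of the 10 differed 2-fold or more from each control, compared with 0.59% of all genes. The median log2 difference from the mean of the empty-vector arrays was 0.16 over the members and 0.07 over all genes. With EV1 left out, 8 members read above the remaining control and 2 below it, when 49.9% of all genes read above it. The 4 members above both controls had to be among these 8, so nothing is read from this count either.

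**Figure D1:**
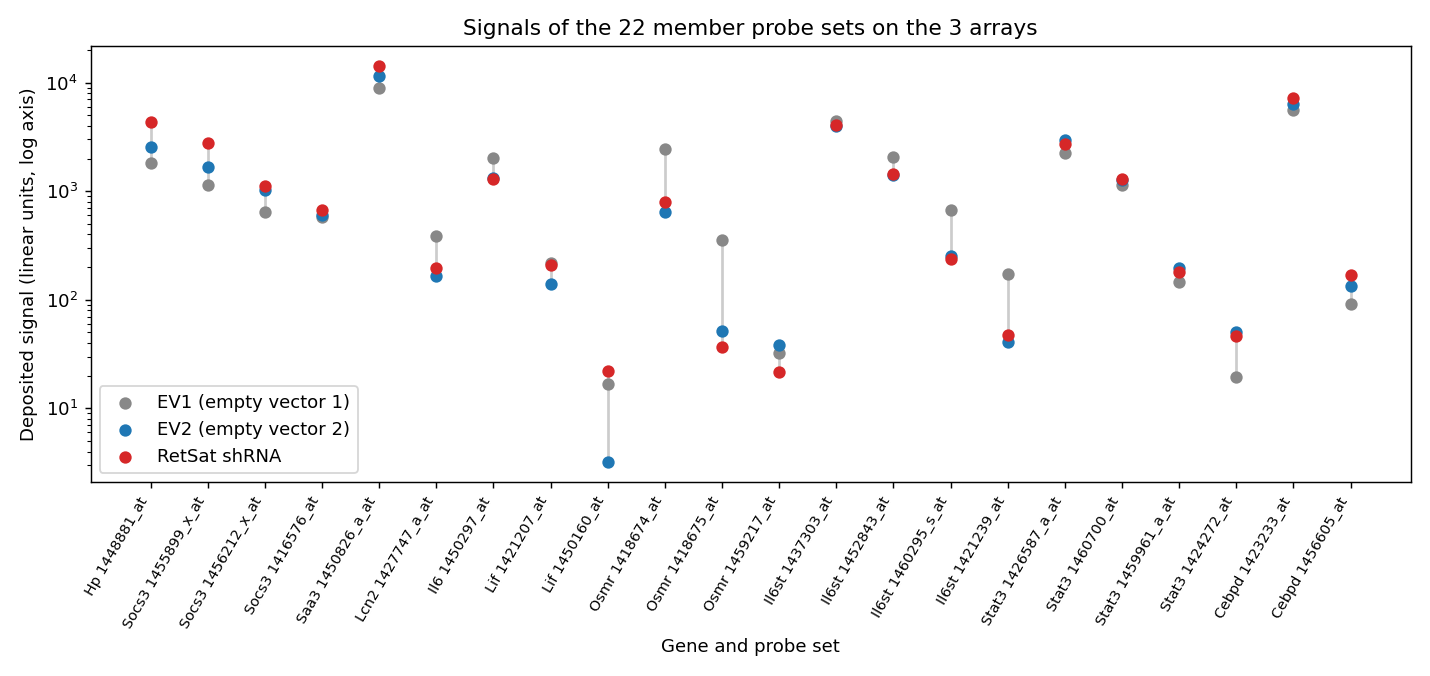
Deposited signal (linear units on a log axis) of each of the 22 member probe sets, with 1 point per array (grey for EV1, blue for EV2, red for RetSat shRNA) and a line spanning the 3 values. Hp reads 4354.9 on RetSat shRNA, above 1831.1 and 2527.4, whereas the grey point stands alone at 2462.9 for Osmr.

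Among the acute-phase products that are members, haptoglobin (Hp), which binds free haemoglobin, differed the most from the mean of the controls. Its 1 probe set read 1831.1 on EV1, 2527.4 on EV2 and 4354.9 on RetSat shRNA. The groups did not overlap, and the shRNA array stood at 1.998 times the empty-vector mean of 2179 ± 492.4 (SD, n = 2). Its log2 difference was 1.25 from EV1 (1.10 relative to the median of all genes) and 0.78 from EV2. The difference from EV2 was larger than the 0.46 between the controls, a gap that the difference from EV1 contains. Ranked by the smaller of the 2 differences, Hp came 45th of 10843 genes and 5th of the 7007 whose mean log2 signal reached the 75th percentile of all probe sets. A place near the top was part of why it was chosen.

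Saa3, a serum amyloid A protein made outside the liver, read 8972.6, 11516.9 and 14309 on EV1, EV2 and RetSat shRNA. The shRNA array was above both controls, at 1.59 and 1.24 times their signal, and the empty-vector mean was 10245 ± 1799 (SD, n = 2). The log2 difference from EV2 was 0.31 and that between the controls was 0.36, so the step to the shRNA array was no larger than the gap between the empty-vector arrays. In all, 5.83% of genes had a larger smaller difference, compared with 0.406% for Hp. Both shares use the values by which these genes were chosen.

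Lcn2, lipocalin 2, which binds bacterial siderophores, did not follow the other 2 products. It read 387.8 on EV1, 166.2 on EV2 and 196.3 on RetSat shRNA. The high array was an empty-vector array, at 2.33 times the other control, and RetSat shRNA lay between the controls. The log2 difference of RetSat shRNA was -0.95 from EV1 and 0.23 from EV2. Its direction against the controls therefore turned on which control was used.

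Socs3, the feedback inhibitor of gp130 signalling, was measured by 3 probe sets that gave 1 order and unequal sizes. The one with the highest signal read 1139.2 on EV1, 1687.7 on EV2 and 2781.3 on RetSat shRNA, 1.65 times EV2 and above the empty-vector mean of 1413 ± 387.8 (SD, n = 2). The second read 648, 1032.9 and 1127.5, and the third read 575.9, 607 and 667.1. Each read lowest on EV1 and highest on RetSat shRNA, but the ratios to EV2 of the second and the third were 1.09 and 1.10.

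The difference of Socs3 from EV2 was thus 0.72 log2 by 1 probe set and 0.13 by each of the others. Between the controls the same probe sets differed by 0.56, 0.66 and 0.07 log2. The first probe set exceeded its gap between controls, the second did not, and the third did so at a small size. The first and second carry the manufacturer's suffix for probe sets whose probes may also match other sequences. Averaged over its probe sets, Socs3 stood 0.54 log2 above the empty-vector mean, against 0.999 by the first alone. By that first probe set Socs3 came 64th of 10843 genes by the smaller difference and 6th of the 7007 brighter ones, directly after Hp. As with Hp, such a place was part of why it was chosen.

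Cebpd, the transcription factor C/EBP delta, read 5653.4 on EV1, 6415.1 on EV2 and 7157.6 on RetSat shRNA by its brighter probe set, and 90.8, 134.5 and 170.1 by the other. Both placed RetSat shRNA highest and EV1 lowest. The log2 differences from EV2 were 0.16 and 0.32, against 0.18 and 0.52 between the controls, so neither exceeded the gap between the empty-vector arrays.

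Stat3, the signal carrier itself, was close to level between RetSat shRNA and EV2. Its 4 probe sets read 2271, 2955.6 and 2728.7 (EV1, EV2, RetSat shRNA), 1144.8, 1276.7 and 1301.6, 146 (then 196.1 and 179.2), and 19.6 (then 50.1 and 46.1). EV1 was the lowest array by all 4, and RetSat shRNA differed from EV2 by -0.11, 0.03, -0.12 and -0.10 log2. Against the all-gene median, the brightest probe set stood 0.24 log2 higher on EV2 than on EV1. Its difference from the mean of the controls was 0.07, and it was -0.01 after quantile normalization.

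Of the ligands, Il6 read 2013.2 on EV1, 1316.6 on EV2 and 1302.1 on RetSat shRNA. EV1 was high and the other 2 arrays were level, with RetSat shRNA at 0.989 times EV2. Lif, leukaemia inhibitory factor, read 218.3, 140.3 and 210.7 by the probe set that passed the filter, so RetSat shRNA lay between the controls, at 1.502 times EV2. Its other probe set read 16.8, 3.2 and 21.9, near the floor of the arrays. Quantile normalization and the mean over probe sets each placed RetSat shRNA above both controls for Lif.

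Of the receptor subunits, Osmr gave the widest gap of the members by their representing probe sets, and it lay between the 2 empty-vector arrays. This subunit, which pairs with gp130 to bind oncostatin M, read 2462.9 on EV1, 644.1 on EV2 and 801.3 on RetSat shRNA. Its second probe set read 353.5, 52.1 and 36.8, a log2 difference from EV1 of -2.55 for EV2 and -2.95 for RetSat shRNA, and the remaining one, below the filter, read 32.2, 38.2 and 21.5. EV1 was thus 3.82 and 6.79 times EV2 by the first and second and 0.843 times by the remaining one. Between RetSat shRNA and EV2 the first 2 probe sets pointed opposite ways, at 0.31 and -0.41 log2.

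Il6st, the gene of gp130, had 4 probe sets that did not give 1 size. They read 4425.1, 4008.8 and 4065.8 on EV1, EV2 and RetSat shRNA, then 2046.1, 1424.2 and 1438.6. The remaining pair, both designed from 1 source sequence, read 669.6, 255.4 and 235.2, and 171.5, 40.5 and 47.4. EV1 was highest by all 4, at 1.10, 1.44, 2.62 and 4.24 times EV2 in that order. RetSat shRNA and EV2 were level by the same probe sets, with log2 differences of 0.02, 0.01, -0.11 and 0.18.

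**Figure D2:**
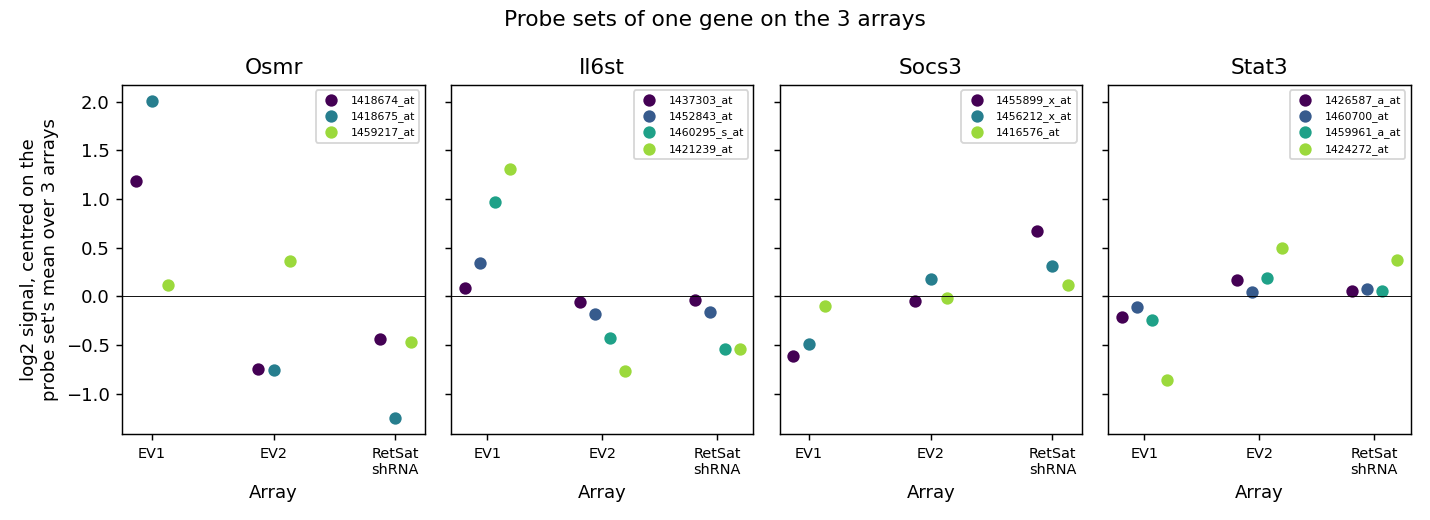
Log2 signal of each probe set of Osmr, Il6st, Socs3 and Stat3, without an offset and centred on that probe set's mean over the 3 arrays (vertical axis), by array (horizontal axis), with 1 point per probe set and array. The Il6st probe sets spread on EV1, from 1.10 to 4.24 times EV2, and those of Socs3 are in the same order with unequal size.

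Between the empty-vector arrays the members fell on both sides. The choice of Hp, Socs3 and Saa3 used both controls, and a gene that reads highest on RetSat shRNA cannot read highest on EV1, so these counts are partly set by the choice and are a description. EV1 was the highest array for 5 of them (Lcn2, Il6, Lif, Osmr and Il6st), compared with 34.2% of all genes, and the lowest for the other 5, compared with 52.6%. At least 2-fold above both other arrays was 1 member, Osmr, compared with 7.92% of all genes, and at least 2-fold below both were 0, compared with 1.86%. The log2 difference, EV2 minus EV1, ran from -1.92 (Osmr) to 0.56 (Socs3), and its median was 0.02 over the members and 0.14 over all genes. There is 1 array on each side of this contrast, so it has no replicate check. RetSat shRNA lay within 0.25 log2 of EV2 for 5 members (Lcn2, Il6, Il6st, Stat3 and Cebpd), compared with 68.5% of all genes.

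**Figure D3:**
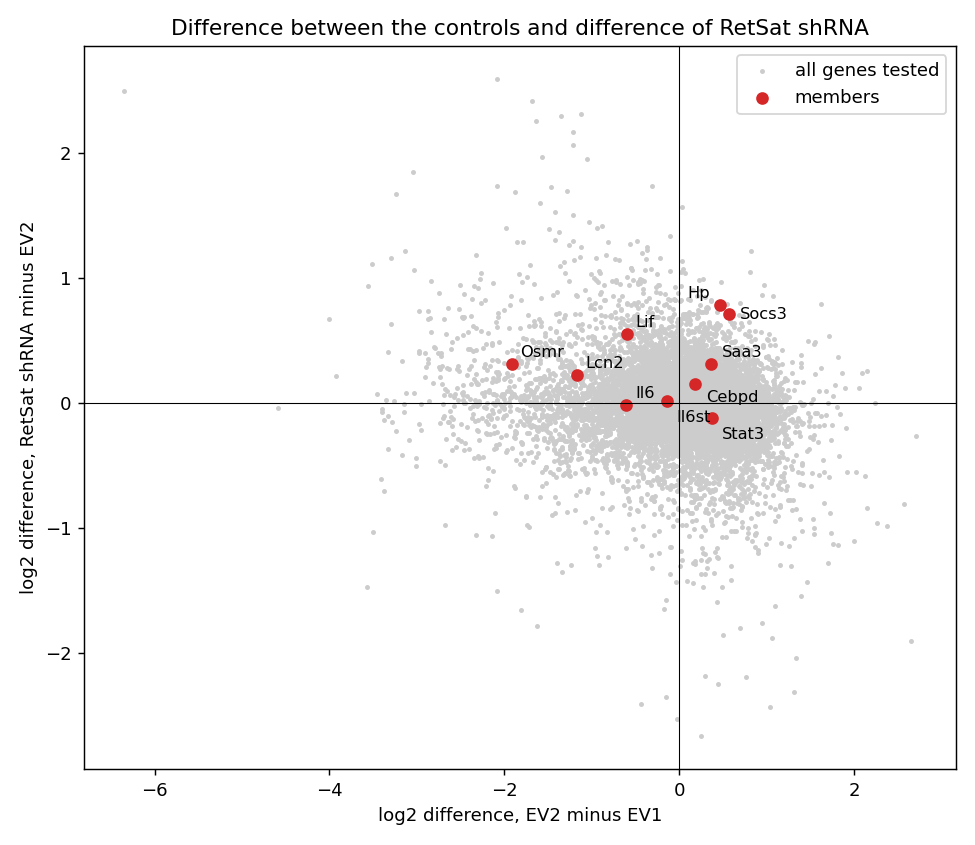
Log2 difference between the empty-vector arrays (horizontal axis) and between RetSat shRNA and EV2 (vertical axis) for all 10843 genes tested (grey) and the 10 members (red, labelled). Both axes use EV2. Osmr lies farthest left at -1.92 while Hp lies highest of the members at 0.78.

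Few genes can be singled out as like a member over only 3 arrays. Likeness was the Euclidean distance between log2 profiles, each centred on its mean. The nearest to Hp were Nudt16 (27.9, 41.1 and 79.3), Zfp316 (45.4, 64.9 and 114.4) and Socs3, at distances of 0.0239, 0.0581 and 0.0719. Hp and Socs3 had both been seen to read highest on RetSat shRNA, so their likeness was partly set by the choice. The offset shrinks the change of dim genes such as Nudt16, which alters their distances. The nearest to Socs3 were Homez, Htr1b and Casz1 (61.9, 102.8 and 66.0 on RetSat shRNA), and those to Saa3 were Slc38a7, Grhpr and Wrap53. Within a distance of 0.25 lay 73 genes for Hp, 79 for Socs3 and 1895 for Saa3.

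The other genes of the pathway were read from 7 lists, without the members. The background for their counts is the 34.4% of all genes that read above both controls and the 25.4% that read below both. None of their tested genes passed limma, and 1, Osm, had an unadjusted p under 0.05. Of 6 tested gp130 cytokines and receptors, 0 read above both empty-vector arrays (0%, against 34.4% of all genes) and 2 read below both (33.3%, against 25.4%). Osm, the ligand of Osmr, read 54.9, 45.2 and 17 on EV1, EV2 and RetSat shRNA, at least 2-fold below both as 0.498% of all genes were, at a signal under the array's median of 35.7. Lifr, the receptor subunit for Lif, read 346.4, 173.8 and 123.7, and its dimmest probe set was opposite at 29.4, 28.5 and 43.5.

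In the relay from receptor to nucleus, 4 of 10 tested genes read above both controls and 4 below both (40% each, against 34.4% and 25.4% of all genes), with a median log2 difference of -0.01 from the empty-vector mean. Jak1, the main kinase bound to gp130, read 3203 on EV1, 1142.7 on EV2 and 1040.9 on RetSat shRNA. Its 2 other probe sets had the same high array (1038.3, 386 and 364, and 123.2, 10.4 and 4.6). Jak2 read 326.7, 192.5 and 170.4, and its second probe set gave the same order at a larger size (173, 40.7 and 8.4). By that probe set RetSat shRNA differed from EV2 by -1.45 log2, against -0.17 by the first. The phosphatase Ptpn11, which links gp130 to the MAP kinases, read 1958.2, 1721 and 1557.7, and its 2 dimmer probe sets gave other orders (76.2, 48.7 and 70.6, and 45.8, 51.6 and 41.6). Stat6 read 899.3, 1135 and 1252.9 with a second probe set opposite (364.1, 269.3 and 254.1).

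Of the brakes on the pathway (SOCS, PIAS and phosphatase genes), 4 of 14 read above both controls and 4 below both (28.6% each, against 34.4% and 25.4% of all genes), with a median of 0.22. Cish, another SOCS family gene and a STAT5 target, read 137, 125 and 205.8, and its controls were close. Ptpn6, the phosphatase SHP-1, read 59.4, 56 and 86.5. Socs7 read 290.4, 355.9 and 458.4 by 1 of its probe sets, while another read 200.4, 467.1 and 391.1, and Socs6 read 488.1, 415.1 and 368.7. The other Socs6 probe sets did not repeat this, since both placed RetSat shRNA between the controls (147, 224.3 and 169.1, and 53.1, 43.3 and 46.3).

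Among genes known to respond to STAT3, 10 of 14 non-members read above both controls (71.4%, against 34.4% of all genes) and 0 below both. Their median log2 difference was 0.44 from EV1 and 0.17 from EV2, when that of all genes was 0.14 and 0.00. Il4ra, a subunit of the interleukin-4 receptor, read 190.3, 284 and 373.9, Junb, an AP-1 subunit, read 416.3, 626 and 743.8, and the survival gene Mcl1 read 2005, 2374.9 and 2695.6. Cebpb, the C/EBP factor that acts with Cebpd on acute-phase promoters, read 5235.3, 6283.3 and 7144.4, and its second probe set also read highest with the shRNA (2685.3, 2611.1 and 2889.9). Between the controls (EV2 minus EV1) the median over these genes was 0.26, larger than the step from EV2 to RetSat shRNA. Other probe sets of Mcl1 went both ways, and 1 dim probe set of Il4ra was opposite.

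Acute-phase products of the liver were mostly at the floor. Of the 27 on the array, 11 passed the filter, and those that did not included Crp (10.7, 27.3 and 21.6) and the fibrinogen chain Fgb (3.9, 2 and 1.6). Also below the filter, and chosen after their values were seen, A2m read 9.2, 9.3 and 35.5 and Saa4 read 63.8, 28.8 and 9.1. Of the 8 non-members tested, 4 read above both controls and 2 below both (50% and 25%, against 34.4% and 25.4% of all genes). Mt2, a metallothionein, read 7141.6, 7138.2 and 9141.6, Mt1 read 10248.4, 9592.4 and 11026.7, and the pentraxin Ptx3 read 7211, 9210.4 and 9930, with RetSat shRNA between the controls by a dim probe set (25.5, 64.1 and 47.3). Serping1, the C1 inhibitor, read 44.9, 44.4 and 36.1. Chosen after their values were seen, Serpina3n (604.6, 298.3 and 372.9), Lbp (190.9, 93.6 and 135.6) and ceruloplasmin Cp (5017.4, 2472.8 and 2424.5) read highest on EV1, as Lcn2 did.

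Of 3 C/EBP family non-members tested, 2 read above both controls (Cebpb and Ddit3, at 574, 616.8 and 687.7) and 1 below both (Cebpg, at 662.2, 500 and 496.5, with a second probe set opposite at 183.2, 242.5 and 278.1). The other Ddit3 probe set (90.3, 48 and 72) and the dimmest of Cebpg (69.4, 24.7 and 33.8) placed RetSat shRNA between the controls. Of 21 NF-kB and interleukin-1 genes, which feed the same acute-phase promoters, 11 read above both controls and 7 below both (52.4% and 33.3%, against 34.4% and 25.4% of all genes). Their median log2 difference was 0.53 from EV1 and 0.01 from EV2. Nfkbiz, a nuclear cofactor needed for induction of Lcn2 and Il6 in mouse cells, read 1249.1, 1696 and 2288.3, but 2 other probe sets did not repeat this (344.4, 316.3 and 302.5, and 328.3, 149.8 and 266.9). Nfkbie read 138.8, 138.9 and 219.2, and its other probe set gave the same order at a smaller size (98.3, 103.8 and 113.3). Relb read 242.1, 290.3 and 360, and Rel read 27.5, 31.6 and 44.7.

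**Figure D4:**
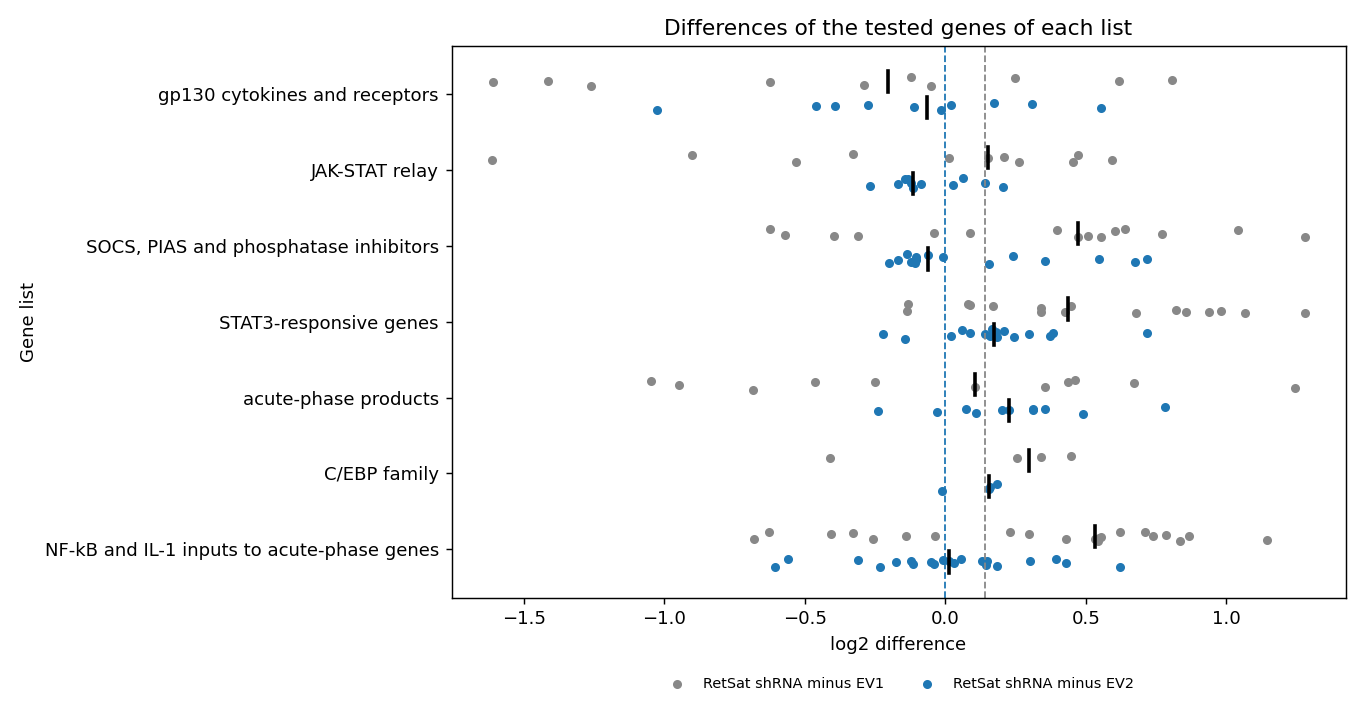
Log2 difference of RetSat shRNA from EV1 (grey points) and from EV2 (blue points) for every tested gene of 7 pathway lists, members included, with a black bar at each median and dashed lines at the medians of all genes (0.14 and 0.00). The points lie closer together for EV2, and the STAT3-responsive genes have medians of 0.44 and 0.17.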

How the data were processed

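Expression was measured on 3 arrays, grouped by sample title (2 empty vector, 1 RetSat shRNA). The authors deposited linear probe set intensities, with software and summarisation not stated. Their 2% trimmed mean was 250.0 on every array, which shows scaling to a common level before deposit. Detection calls were not used, and the number of arrays limits precision.

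Probe sets were named from the platform annotation. Of them, 34945 had exactly 1 symbol, 932 several, 9160 none listed, and 64 were controls. A gene took its probe set of highest mean log2 signal. The offset of 10.2, the 25th percentile of all values, was added before log2. The 10843 genes at or above the median mean log2 signal of all probe sets were tested in limma 3.58.1 (R 4.3.3, lmFit and eBayes, two-sided, Benjamini-Hochberg adjustment, 1 residual degree of freedom). The lone shRNA array is assumed to vary like the controls. The fit was also run on simulated arrays, but these had less noise than the real ones, so that run does not bear on its power here.

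The members, lists, tests and alternatives were chosen with earlier results of these data known. Genes named are every member, Retsat, up to 4 non-members per list ranked by the smaller of their 2 differences, the 3 genes most like Hp, Socs3 and Saa3, and cell type markers. Genes outside this rule are said to be. Promoter sequences are RefSeq's (GRCm38.p6). Alternatives were the offset, normalization, filter, probe set choice, variance prior and each control array left out.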

Additional observations from a re-analysis of the deposited data

How the results depend on the processing

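No paired analysis was possible because the groups share at most 1 number, and the labels do not say whether the 2 in the shRNA title is a replicate, a hairpin or a clone. With a control left out limma has no residual degrees of freedom, so no count is given from it there. The number of genes past limma was 0 except with the arrays centred on their medians (1) and with a robust variance prior (7). The number at least 2-fold from both controls, 64, was 110 with an offset of 1, 15 with an offset of 32, 800 with no filter, 1 with the filter at the 75th percentile, and 188 to 1478 with a control left out, when 1 difference sufficed. Members above both controls (4) came to 5 with quantile normalization, 5 with the mean over probe sets (Lif added in both) and 5 to 8 with a control left out, and members below both (1) to 2 with quantile normalization, 2 with the mean over probe sets, and 2 to 5 with a control left out. Hp, Socs3, Saa3 and Cebpd were above the controls used under each of these settings. With a control left out that was fixed in advance, since a gene above both controls is above each. The mean over probe sets could not have changed it either, since every probe set of these 4 genes read highest on RetSat shRNA. Of these settings only quantile normalization could have changed it. Hp, Socs3 and Saa3 were also chosen for reading highest on RetSat shRNA. The members' median log2 difference, 0.16, is given next with that of all genes in brackets (0.07 in the main setting). It was 0.0503 (0.0992) with quantile normalization and 0.0745 (0.0947) with the stricter filter, which removed Lif. With the mean over probe sets it was 0.29 (0.03), without EV1 0.27 (0.00) and without EV2 0.11 (0.14). The members' median was thus below that of all genes with quantile normalization, with the stricter filter and without EV2. Without a change of sign, Cebpd (0.25) came to 0.11 with quantile normalization and 0.41 with the mean over probe sets, Il6st (-0.05) to -0.16 and -0.46, and Socs3 (0.999) to 0.54 with the mean over probe sets. Single members turned sign in 6 instances: Stat3 with quantile normalization (-0.01) and without EV1 (-0.11), Lcn2 (0.23), Osmr (0.31) and Il6st (0.02) without EV1, and Lif (-0.05) without EV2. Without EV1, an alternative chosen after seeing the data for the lists, 14 of 16 STAT3-responsive genes, members included, read above EV2 (12 above both), as did 4 of 10 gp130 cytokines and receptors (0 above both), 9 of 11 acute-phase products (6), 6 of 15 brakes (5), 4 of 11 relay genes (4), 3 of 4 C/EBP genes (3) and 11 of 21 NF-kB genes (11), when 49.9% of all genes did. Where the fewer controls, genes or probe sets do not account for a change, the cause was not tested.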
